A study of Mus musculus with 10 samples.

Results

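The cytosolic ribosomal protein genes encode the proteins of the large (Rpl) and small (Rps) subunits of the ribosome that translates nuclear-encoded mRNA. Here their mRNAs were counted by RNA-seq in the thymus of 10 newborn mice, aged 3 days, in which Usp7 was intact or deleted. Members were the protein-coding genes with a symbol of Rpl or Rps, a number and at most 1 further letter, together with Rplp0, Rplp1, Rplp2 and Rpsa. The rule found 79 genes among the 35375 features of the count table, 48 for the large subunit and 31 for the small one. Of these, 78 had enough counts to be tested. Rpl10l, a testis paralog of Rpl10, had 0 counts in all 10 libraries. The usual gene for Rpl24 was not found by its identifier. Symbols outside the rule, such as Rps3a1 and Fau, were kept apart.

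All mice were on the C57BL/6J background. The homozygous knock-out group (homozygous KO, n = 3) lacked both copies of Usp7 in the hematopoietic system, and the heterozygous group (heterozygous KO, n = 3) lacked 1 copy there. The wild types (n = 4) comprised 2 mice with cre induction and 2 without, and which library came from which is not stated. The count table's own headings add the word het to wild types 3 and 4, whose titles say wild type, and the titles were followed. With only these 2 as controls, 3 members instead of 19 were called in homozygous KO, and 13.4% of all features. With only wild types 1 and 2 as controls, 19 members and 18.2% of all features were called. The fit with all 4 wild types called 25.8% of all features. The driver of cre is not named in the labels. Cells outside that lineage keep the gene. Levels are in CPM, which are counts divided by the TMM-scaled total of their library. Usp7, a deubiquitinating enzyme, was at 303, 422 and 408 CPM in the homozygous group, 472, 516 and 516 in the heterozygous one and 676, 670, 594 and 589 in wild type. Library totals were 39.8 to 122 M counts. Each library is 1 animal, but nothing states whether animals shared litters or were processed together, so p-values measure the spread between these libraries.

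Ribosomal proteins are made in nearly equal numbers and assembled on ribosomal RNA in the nucleolus. Their mRNAs begin with a pyrimidine tract that places their translation under mTOR control, and their amounts usually move together. Free Rpl5 and Rpl11 bind Mdm2, the ubiquitin ligase of p53, and Usp7 removes ubiquitin from both Mdm2 and p53. Loss of single ribosomal proteins has marked effects on blood cells: Rps19 is mutated in Diamond-Blackfan anemia, Rps14 is deleted in the 5q- syndrome, and Rpl5, Rpl10, Rpl11 and Rpl22 are mutated in T-cell leukemia.

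Core promoters of members are shown as sequence outside the coding region, and no other sequence was compared. RefSeq (GRCm38.p6) gave a promoter of 300 bases, from 250 before to 50 after the start site, for 59 of the 79 members. The hexamer CGGAAG, the core of the motif bound by ETS family factors such as Gabpa, was found on either strand in 40 of these 59 genes (67.8%), against 18.8% of all 27025 genes with a promoter. ATGGCG, the core of the YY1 motif, was in 32.2% against 10.2%. TATAAA was in 10.2% against 15.7%, and CACGTG, the E-box bound by Myc, in 10.2% against 8.09%. Among the 16 members with a promoter that rose in homozygous KO (below), 13 held CGGAAG, as did 27 of the other 43. The windows run 5′ to 3′ on the gene's strand from 75 bases before to 25 bases after the first listed start, with CGGAAG or its reverse complement CTTCCG in capitals. They are those of 4 members that rose in homozygous KO, then of Rps28 and Rplp0, which did not.
Rps27l, chr9:66946011-66946110, plus strand: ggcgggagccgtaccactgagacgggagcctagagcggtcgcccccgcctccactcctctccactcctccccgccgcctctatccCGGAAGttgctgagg
Rps19, chr7:24884517-24884616, plus strand: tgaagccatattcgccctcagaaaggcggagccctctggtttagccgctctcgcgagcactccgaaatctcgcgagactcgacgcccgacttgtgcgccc
Rpl38, chr11:114668505-114668604, plus strand: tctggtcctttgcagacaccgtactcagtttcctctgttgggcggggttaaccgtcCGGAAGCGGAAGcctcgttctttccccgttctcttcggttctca
Rpl13a, chr7:45128721-45128820, minus strand: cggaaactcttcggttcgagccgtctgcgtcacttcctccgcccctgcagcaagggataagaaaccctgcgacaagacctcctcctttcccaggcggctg
Rps28, chr17:33824538-33824637, minus strand: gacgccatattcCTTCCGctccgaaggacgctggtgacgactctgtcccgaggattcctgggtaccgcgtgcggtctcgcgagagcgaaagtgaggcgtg
Rplp0, chr5:115559392-115559491, plus strand: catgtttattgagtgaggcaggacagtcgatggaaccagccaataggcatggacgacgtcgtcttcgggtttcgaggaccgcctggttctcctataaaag
The hexamer was present in 2 adjoining copies in Rpl38, in 1 copy each in Rps27l and Rps28, and in neither Rps19, Rpl13a nor Rplp0 within these windows. Genes that rose and genes that did not were thus found both with and without it.

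Ribosomal protein genes took a slightly larger mean share of the counts in both knock-out groups than in wild type, but the groups overlapped. The 79 genes took 3.66%, 3.74%, 3.81% and 4.19% of all counts in wild types 1 to 4 (3.85% ± 0.234, SD, n = 4). They took 4.09%, 4.38% and 4.33% in heterozygous KO (4.27% ± 0.154, SD, n = 3) and 4.02%, 4.05% and 3.87% in homozygous KO (3.98% ± 0.0942, SD, n = 3). Wild type 4 stood above the other 3 wild types and all 3 homozygous libraries, and within the range of the heterozygous ones. In that library 74 of the 78 tested members were above their wild-type mean, while in wild type 1, at 39.8 M counts the shallowest library, 7 were. Shares depend on what else is in the library, and on the TMM scale (trimmed mean of M-values) the libraries' median member was 0.17, 0.16 and 0.08 above the wild-type mean on the log2 scale in homozygous KO. In heterozygous KO it was 0.09, 0.22 and 0.19 above that mean. Malat1, an abundant nuclear RNA, was at 5206 to 6457 CPM in wild type, 3619 to 5041 in heterozygous KO and 3277 to 3718 in homozygous KO, below the wild types in both knock-out groups, and its part in the shares was not tested. In whole tissue, fewer cells of a type and less RNA per cell cannot be told apart.

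**Figure D1:**
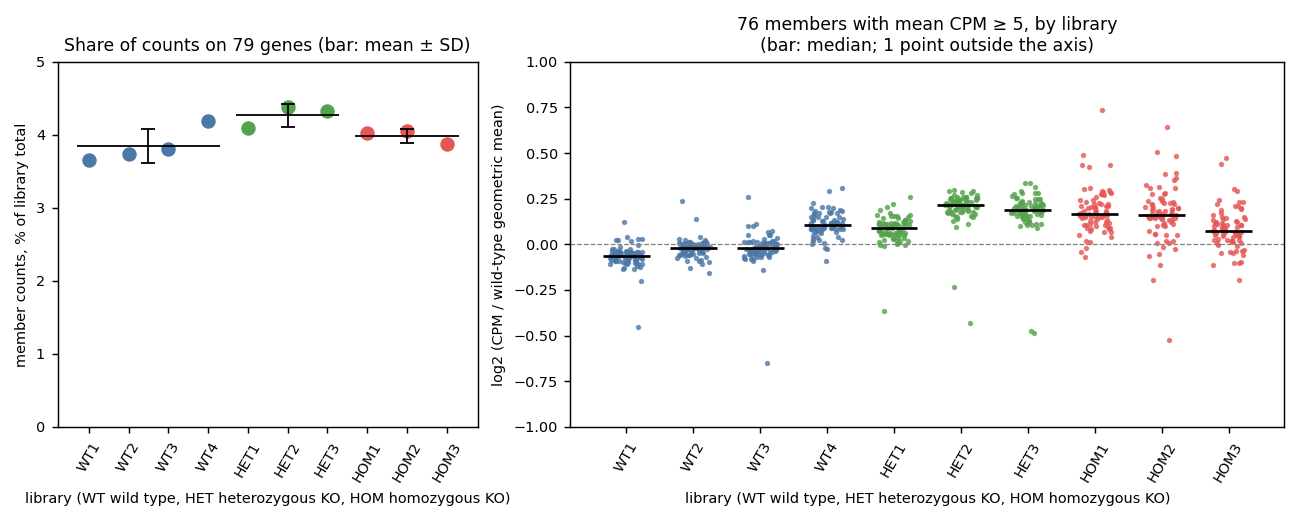
Left, percent of each library's counts on the 79 ribosomal protein genes, with the mean ± SD of each group. Right, log2 of each member's CPM over its wild-type mean, 1 point per member (76 with a mean of at least 5 CPM) and a bar at the median. The members of a library lie close together in wild type and heterozygous KO and spread more widely in homozygous KO, and wild type 4 lies above the other wild types.

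Against wild type, 19 of the 78 members rose in homozygous KO and none fell (edgeR quasi-likelihood test, Benjamini-Hochberg adjusted p under 0.05 over 19511 features). That is 24.4% of the members, where 25.8% of all features were called, so the number of calls was near the background. The direction differed from it: all 19 called members were higher, against 48.6% of all called features. Members called higher were thus 24.4% of the 78, against 12.5% of all features. At an unadjusted p under 0.05 there were 41 members, 40 of them higher, or 52.6% against 37.4% of all features. Members shifted together within a library, so such counts are not sums of separate results. The median log2 fold change was 0.13, or 9.74%, with an interquartile range of 0.08 to 0.19, while the median over all features was -0.01. Of the 78 members, 70 were above 0 (89.7%, against 48.4% of all features). Both subunits were alike in this: 13 of 47 large-subunit members were called with a median of 0.14, and 6 of 31 small-subunit members with a median of 0.13. In 26 members (33.3%) the 3 homozygous libraries lay above all 4 wild types, against 16.3% of all features, and in none did they lie below.

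The largest rise was in Rps27l, a paralog of Rps27 that p53 is known to induce. It was at 36.3, 36.7, 41.9 and 41.7 CPM in wild type, 43.6, 44.6 and 49.3 in heterozygous KO and 65.02, 61.03 and 54.23 in homozygous KO. The groups did not overlap, and the heterozygous libraries lay between the other two groups. Rps27l rose by 53.4% in homozygous KO against wild type (log2 fold change 0.62 ± 0.0831, SE, adjusted p = 3.5e-04) and by 31.1% against heterozygous KO (0.39 ± 0.0893, adjusted p = 0.0116). Rps27, the standard member that it resembles, was at 311 to 355 CPM in wild type and 307 to 357 in homozygous KO, with a log2 fold change of 0.02 (adjusted p = 0.905). The paralog thus rose where the standard gene showed no detectable difference, but the difference between the paralogs was not itself tested.

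Rps19, a small-subunit protein needed for maturation of the small subunit's RNA, showed the same order of groups. It was at 315, 325, 335 and 349 CPM in wild type, 368, 394 and 386 in heterozygous KO and 446, 469 and 449 in homozygous KO. All 3 groups were separate, with the heterozygous libraries in the middle. Rps19 rose by 37.4% in homozygous KO against wild type (0.46 ± 0.0509, adjusted p = 9.1e-05) and by 0.25 ± 0.0547 on the log2 scale against heterozygous KO (adjusted p = 0.00954). The heterozygous libraries differed from wild type by 0.21, with an unadjusted p of 0.00165 and an adjusted p of 0.522.

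The next rises were smaller. Rpl13a, a large-subunit protein that also silences inflammatory mRNAs when released, was at 725, 797, 874 and 962 CPM in wild type, 974, 1006 and 997 in heterozygous KO and 1129, 1035 and 979 in homozygous KO. Both knock-out groups lay above the wild types, which themselves spread widely (0.32 ± 0.0882 in homozygous KO, adjusted p = 0.0212). Rpl38, whose loss alters the mouse axial skeleton through translation of Hox mRNAs, was at 202, 203, 202 and 223 CPM in wild type, 228, 247 and 252 in heterozygous KO and 253, 265 and 243 in homozygous KO. Wild type 4 was the high wild type, yet below every knock-out library (0.29 ± 0.0567, adjusted p = 0.00358). Rps2, at the mRNA entry channel, was at 796 to 942 CPM in wild type, 913 to 1007 in heterozygous KO and 989 to 1118 in homozygous KO (0.28 ± 0.0686, adjusted p = 0.0128). Here the heterozygous group overlapped wild type and the homozygous group did not.

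A further 13 members rose by 10.3% to 19.4%, including Rps6 and Rpl4. Rps6, the classical phosphorylation target of S6 kinase, was at 592 to 679 CPM in wild type, 673 to 748 in heterozygous KO and 715 to 759 in homozygous KO (0.23 ± 0.0599, adjusted p = 0.0149). The members that took the most counts, not corrected for gene length, were Rplp0, Rpsa, Rpl4 and Rpl3. Rpl4 was at 1132 to 1192 CPM in wild type and 1299 to 1377 in homozygous KO, without overlap (0.20 ± 0.0504, adjusted p = 0.0128). Rplp0, the acidic stalk protein often used as a reference gene, was at 1515, 1563, 1418 and 1773 CPM in wild type, 1631, 1810 and 1752 in heterozygous KO and 1730, 1544 and 1461 in homozygous KO. Its libraries overlapped fully between homozygous KO and wild type (0.01 ± 0.0845, adjusted p = 0.943), and its sign turned under other scalings. Rpsa, the laminin-receptor homolog whose loss causes asplenia, had 0.19 ± 0.0714 (adjusted p = 0.0754), and Rpl3, which lies near the peptidyl transferase centre, had 0.10 ± 0.0636 (adjusted p = 0.259). Neither passed the test.

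Rpl5 and Rpl11, the partners of Mdm2, had differences near that of the median member. Rpl5 was at 588 to 646 CPM in wild type and 640 to 684 in homozygous KO (0.13 ± 0.0542, adjusted p = 0.0986), and Rpl11 at 452 to 497 and 499 to 518 (0.13 ± 0.0548, adjusted p = 0.113). Rpl22, whose loss blocks development of αβ T cells, was at 142, 139, 147 and 131 CPM in wild type, 157, 157 and 155 in heterozygous KO and 163, 144 and 142 in homozygous KO. The heterozygous libraries were above all wild types and the homozygous ones overlapped them (0.10 ± 0.0588, adjusted p = 0.235, or 0.15 with an adjusted p of 0.041 when the run of animal numbers described below was a term). Rpl10, which helps the subunits to join, had 0.07 ± 0.0591 (adjusted p = 0.4). Rps14 was at 665, 670 and 683 CPM in 3 wild types and 896 in wild type 4, against 812 to 949 in homozygous KO, so that a single control overlapped (0.26 ± 0.108, adjusted p = 0.104). In the fit of all 10 libraries without any such term, none of these 5 genes passed the test. Rps14 passed in 3 of 20 alternatives. Among them were the replicate number as a term (0.37, adjusted p = 0.00558) and wild types 1 and 2 as the only controls (0.39, adjusted p = 0.0188).

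**Figure D2:**
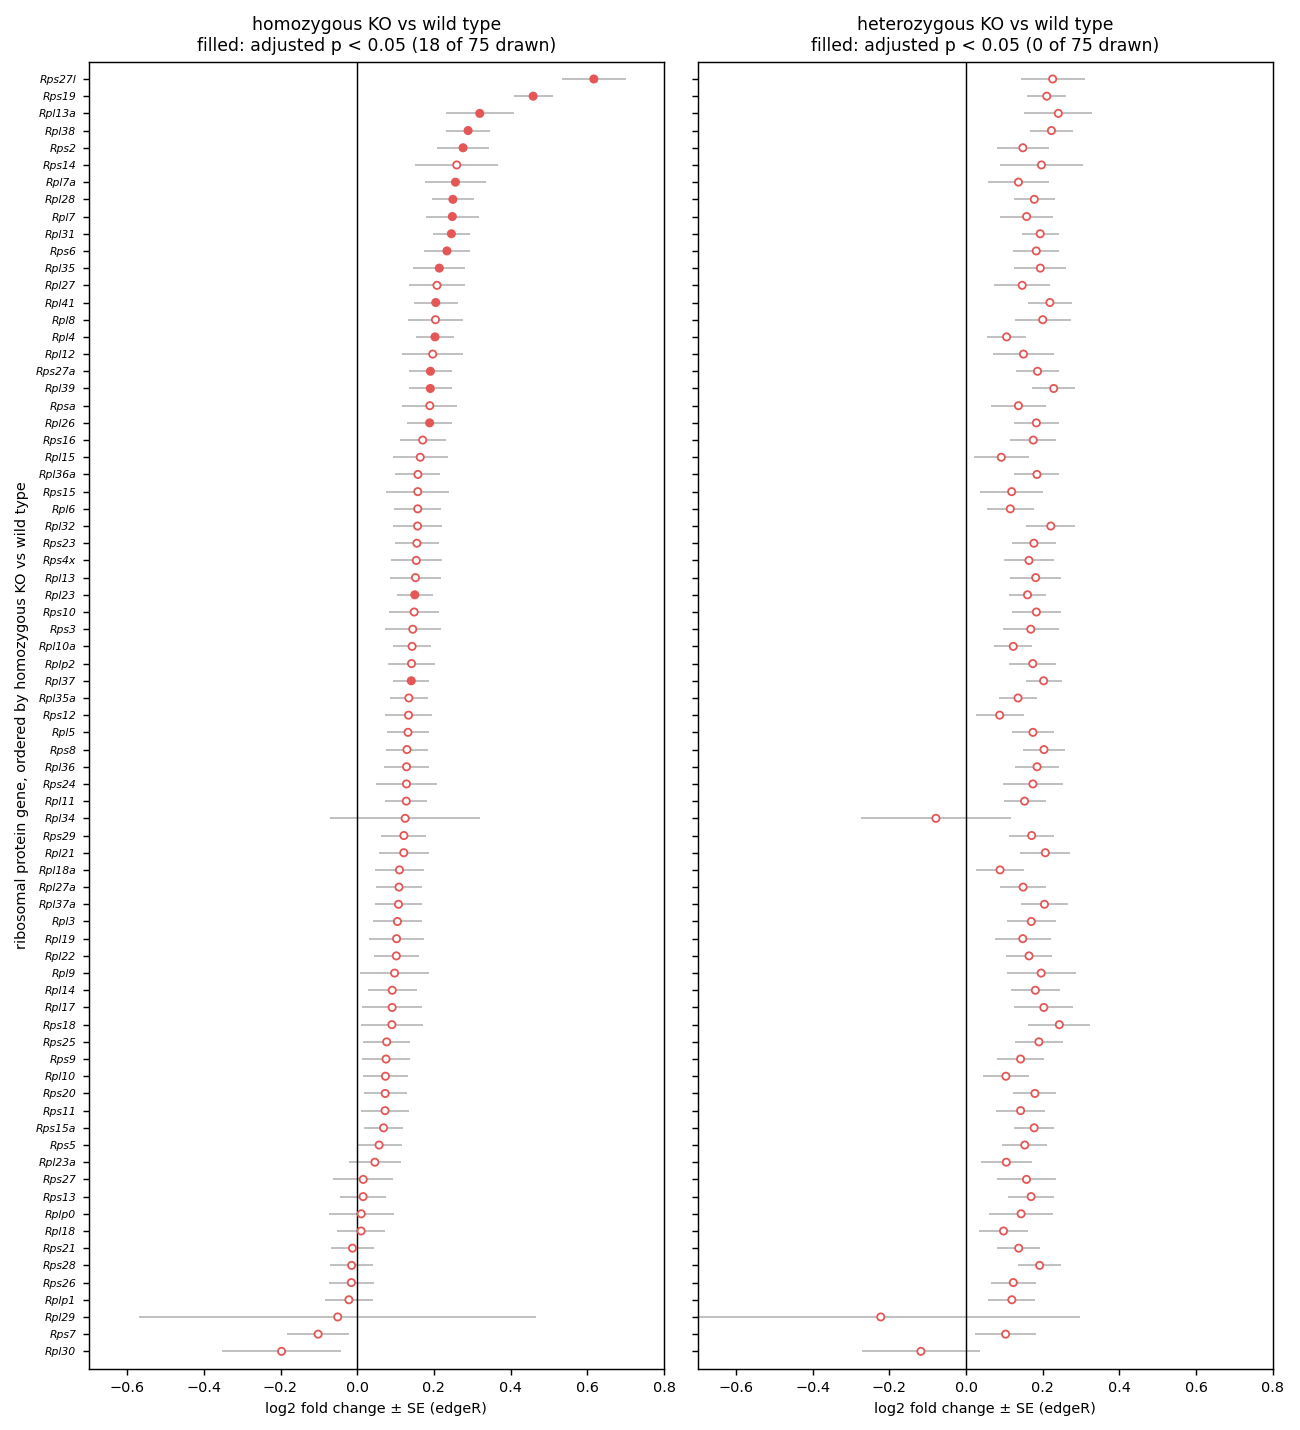
Log2 fold change ± SE of 75 members, ordered by homozygous KO against wild type (left), with heterozygous KO against wild type in the same order (right). Filled points passed an adjusted p under 0.05, which 18 of those drawn did on the left and 0 on the right. Rpl3l and Rpl39l, near 1 CPM, are not drawn. Most points on both sides lie to the right of 0, and the left column fans out while the right one is nearly vertical.

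In heterozygous KO against wild type no member passed the adjusted threshold by edgeR, and the lowest adjusted p was 0.522. Over all features 0.0154% were called. An unadjusted p under 0.05 was reached by 51 of 78 members (65.4%), all 51 higher, against 7.28% of all features. Members shifted together within a library, so these are not 51 separate results. In wild type 4, 74 members were above their wild-type mean, and in wild type 1, 7 were. The libraries' member medians had an SD within groups of 0.067 on the log2 scale. DESeq2 called 3 members, Rpl31, Rpl37 and Rps19, all higher, and over all features it called 71, 39.4% of them higher. The median log2 fold change was 0.17, or 12.7%, with an interquartile range of 0.14 to 0.19, against a median of -0.01 over all features. Of the 78 members, 75 were above 0, and in 28 (35.9%) all 3 heterozygous libraries lay above all 4 wild types, against 4.41% of all features. The differences in the heterozygous group were thus small and nearly equal from member to member, whereas those in the homozygous group had a wider interquartile range. Both comparisons use the same 4 wild types and are not independent of each other. Xist, the RNA of the inactive X chromosome of females, was at 0.479 to 1.03 CPM in heterozygous KO. It was at 0.368 in wild type 1 and 1913 to 2459 in wild types 2 to 4. The homozygous libraries had 1.11, 1.12 and 2042. Judged by Xist, sex and genotype are largely confounded in the heterozygous comparison. With Xist as a covariate the median there was 0.18 and no member was called.

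Between the knock-out groups the members did not share a direction. In homozygous against heterozygous KO, 4 of 78 members (5.13%) were called where 17.1% of all features were. Rps27l and Rps19 were higher and Rps28 and Rpl3l lower, with a median over members of -0.03. Rps28, a small-subunit protein at the mRNA exit channel chosen here after its values were seen, was at 259, 283 and 276 CPM in heterozygous KO, 250, 230 and 229 in homozygous KO and 231, 239, 230 and 254 in wild type. The homozygous libraries lay below every heterozygous one and at the level of the wild types, 2 of them just under the lowest wild type, and the fall against heterozygous KO was 0.21 on the log2 scale (SE 0.0597, adjusted p = 0.0355). Rpl3l, the striated-muscle paralog of Rpl3, fell by 1.38 ± 0.385 (adjusted p = 0.0311), from 0.940, 1.61 and 1.13 CPM to 0.260, 0.489 and 0.676. Without overlap, 3 members were higher in homozygous KO, Rps27l and Rps19 among them, and 6 were lower (Rpl21, Rps21, Rps28, Rplp1, Rps7 and Rpl3l). The 6 are 7.69% of the members, against 16.8% of all features, and the 3 are 3.85%, against 16.5%.

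To see which members changed relative to the others, each library was also scaled to the sum of its member counts, a choice made after seeing the data. On that scale 5 members were called between homozygous KO and wild type, 3 higher and 2 lower, which is 6.41% of the members against 22.4% of all features. Rps27l (0.47, adjusted p = 0.00102) and Rps19 (0.31, adjusted p = 0.00168) were among the higher ones, and Rps21 (-0.16, adjusted p = 0.0414) and Rps7 (-0.25, adjusted p = 0.0179) were lower. Rps7, a small-subunit protein that also binds Mdm2, was at 552, 509, 575 and 641 CPM in wild type, 575, 631 and 629 in heterozygous KO and 572, 524 and 495 in homozygous KO on the TMM scale. Its homozygous libraries were at the low side of the wild types, 1 of them below all 4 (-0.10 ± 0.0805, adjusted p = 0.39), while most other members were high. No member was called on the member scale in heterozygous KO against wild type.

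**Figure D3:**
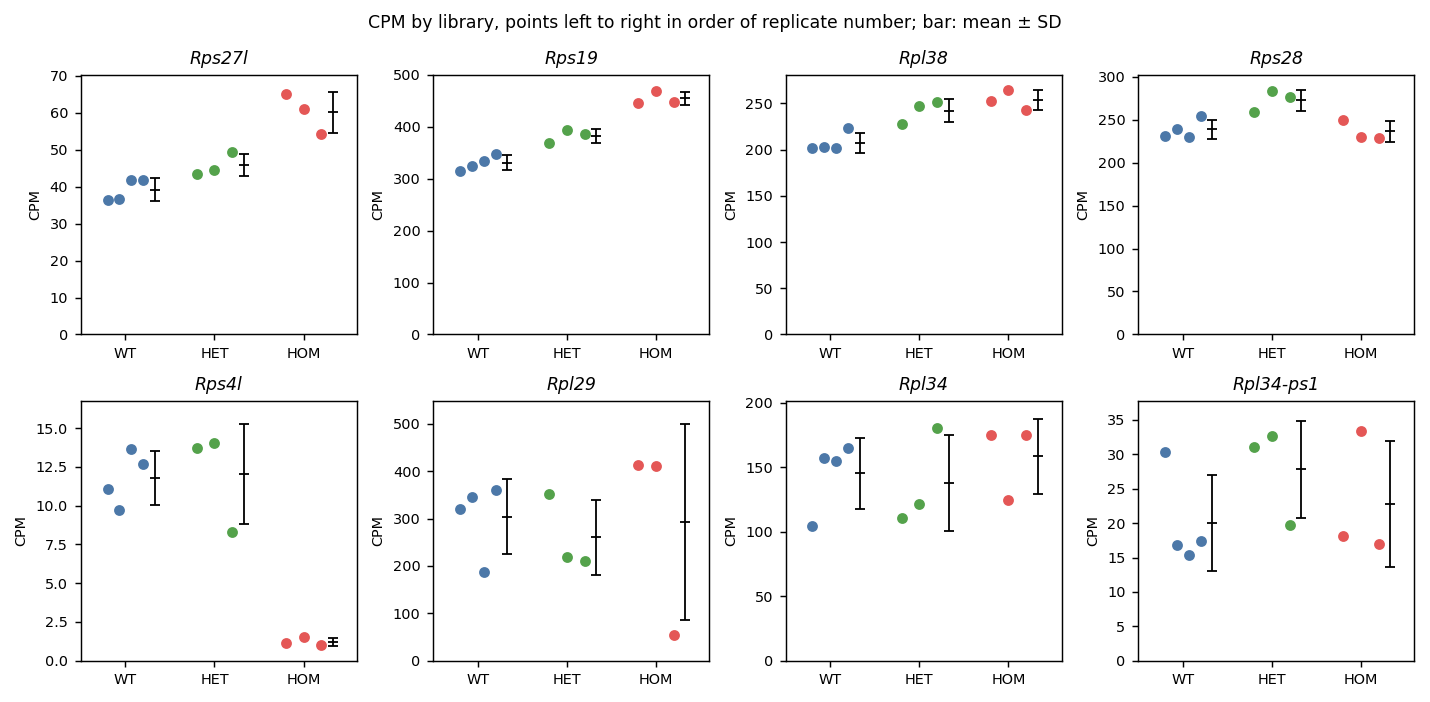
CPM by library for Rps27l, Rps19, Rpl38, Rps28, Rps4l, Rpl29, Rpl34 and Rpl34-ps1 in wild type (WT), heterozygous KO (HET) and homozygous KO (HOM), with the mean ± SD of each group beside its points. Rps27l and Rps19 step up from group to group, Rpl38 is higher in both knock-out groups, Rps28 is high in heterozygous KO, Rps4l is low in homozygous KO, and the last 3 vary between libraries of a group.

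The numbers of the animals fall in 2 runs, 44 to 51 (wild types 1 to 3, heterozygous KO 1, homozygous KO 1) and 56 to 63 (wild type 4, the other 2 mice of each knock-out group). The labels do not say whether the runs are litters or batches. Within the first run the median member was 0.21 higher in homozygous KO than in wild type on the log2 scale, with 75 of 78 members above 0. Within the second it was 0.01, with 40 of 78 above 0, so the general shift in homozygous KO was not seen against the only control of that run. The differences were 0.77 and 0.46 for Rps27l and 0.46 and 0.40 for Rps19. In heterozygous KO the medians were 0.13 and 0.09, with 75 and 69 members above 0. With 1 library in some cells of this layout, these are values without a test. A fit over all libraries with the run as a term called 20 members between homozygous KO and wild type, 19 higher and 1 lower, with a median of 0.11. With that term 27.2% of all features were called, so the number of called members was near the background. Of the 19 called without it, 17 were called again, and Rpl3l was then lower (-1.21, adjusted p = 0.026).

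**Figure D4:**
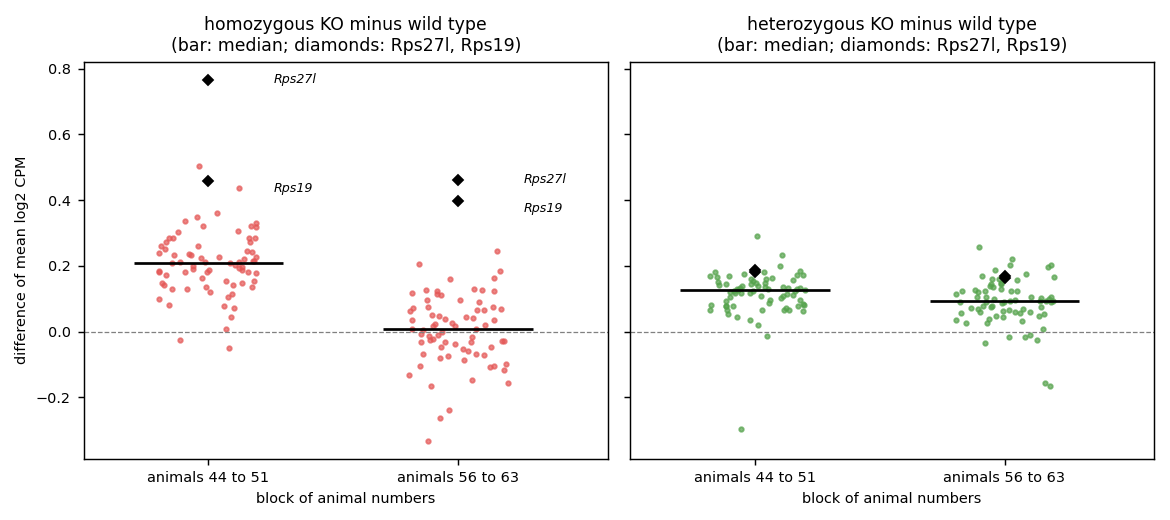
Difference of mean log2 CPM from wild type within each run of animal numbers, 1 point per member (75 members, without Rpl3l, Rpl39l and Rpl29), with a bar at the median. In homozygous KO (left) the median falls from 0.21 to about 0 between the runs while Rps27l and Rps19 (diamonds) stay high, and in heterozygous KO (right) it is near 0.1 in both.

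A few members varied between mice of the same group. The coefficient of variation within groups had a median of 5.49% over 76 members, but it was 45.0% for Rpl29, 21.1% for Rpl34 and 16.5% for Rpl30, all large-subunit genes singled out after their values were seen. The next highest was 11.2%. Rpl29 was at 320, 347, 188 and 360 CPM in wild type, 352, 218 and 210 in heterozygous KO and 414, 411 and 54.1 in homozygous KO. Rpl34 was at 104 CPM in wild type 1, 111 and 122 in heterozygous KO 1 and 2 and 125 in homozygous KO 2, and at 155 to 180 in the other 6 libraries. The low libraries thus came from every group. Rpl34-ps1, a processed pseudogene of Rpl34, was at 30.3 to 33.4 CPM in these 4 libraries and at 15.3 to 19.7 in the other 6 (Pearson's r -0.87, Spearman's rho -0.49 over 10 libraries). Reads that match both a gene and its pseudogene may be assigned to either. The sequences were not compared here, and the part of such reads in this pattern was not tested. Pseudogenes named after members, 192 in the table, held 0.0303% to 0.0372% of all counts.

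Paralogs and related genes outside the rule showed one large change. Rps4l, a paralog of Rps4x that the annotation lists as a transcribed processed pseudogene, was at 11.1, 9.75, 13.7 and 12.7 CPM in wild type, 13.7, 14.1 and 8.30 in heterozygous KO and 1.16, 1.51 and 0.986 in homozygous KO. Every homozygous library was far below every other library, and Rps4l fell by 3.28 ± 0.233 on the log2 scale against wild type (adjusted p = 4.8e-06) and by 89.7% in level. Rps4x itself was at 852 to 987 CPM in wild type and 954 to 1064 in homozygous KO (0.15 ± 0.0662, adjusted p = 0.114). Rpl7l1, a paralog of Rpl7 that acts in large-subunit assembly, rose by 0.27 ± 0.0595 (adjusted p = 0.00646). Rpl22l1, which can replace Rpl22, was lower in homozygous than in heterozygous KO (-0.27 ± 0.0716, adjusted p = 0.0232), at 52.5, 48.5 and 43.7 CPM against 57.3, 57.8 and 59.8.

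The remaining related genes did not pass against wild type. Differences in homozygous KO were 0.14 for Rps3a1 (adjusted p = 0.102), 0.10 for Fau (0.339), 0.14 for Rpl36al (0.143) and 0.17 for Rack1 (0.11). Rpl39l, a testis paralog of Rpl39, ranged from 1 to 152 counts, and its fold change of 0.17 ± 0.893 (adjusted p = 0.908) carries little information. Rpl3l rested on 21 to 154 counts per library and against wild type had -0.91 ± 0.369 (adjusted p = 0.0962).

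Other genes of the ribosome pathway were read from lists by role. Their counts stand beside 25.8% of all features called and 12.5% called higher, and the first 5 of the 6 lists had 12.7% to 20.8% of their genes called, below that share of all features. Of 76 genes for mitochondrial ribosomal proteins, which build the separate ribosome of that organelle, 13 rose and 1 fell in homozygous KO, with a median of 0.11. Mrpl18 rose most (0.37 ± 0.0691, adjusted p = 0.00273) and Mrpl24 fell (-0.28 ± 0.0843, adjusted p = 0.0307). Of 24 translation factors and other genes whose mRNAs begin with a pyrimidine tract or that act in translation, 5 rose and none fell, with a median of 0.15, led by Hint1, a nucleotide hydrolase (0.29 ± 0.0864, adjusted p = 0.0308). Their medians were thus close to that of the cytosolic members. Of 55 ribosome assembly factors 6 rose and 1 fell (median 0.07), Nop58 of the box C/D particle most (0.28 ± 0.0616, adjusted p = 0.00747) and Rrp1b down (-0.32 ± 0.0881, adjusted p = 0.0211).

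Of 15 genes of the RNA polymerase I machinery, which transcribes ribosomal RNA, none rose and 2 fell, with a median of -0.04. Taf1c, a subunit of its promoter factor, was at 48.8, 49.1, 54.7 and 45.6 CPM in wild type and 24.1, 25.9 and 26.4 in homozygous KO (-0.96 ± 0.0735, adjusted p = 7.5e-06). Polr1a, the largest subunit, had -0.24 ± 0.0578 (adjusted p = 0.012). Of 15 genes of the mTOR pathway 2 rose and 1 fell, Eif4ebp2 (0.25 ± 0.0458, adjusted p = 0.00262) and Deptor (-0.83 ± 0.143, adjusted p = 0.00168) being the extremes. Of 11 genes around p53 and Myc 6 rose and 1 fell, the p53 targets Zmat3 (3.20 ± 0.0993, adjusted p = 2.5e-08) and Cdkn1a (2.65 ± 0.182, adjusted p = 3.7e-06) among them. Myc, which drives ribosome production in many cells, fell by 0.64 ± 0.166 (adjusted p = 0.015), with 94.9 CPM in wild type 4 against 145 to 155 in the other wild types and 73.3 to 100.3 in homozygous KO. No gene of these 6 lists was called in heterozygous KO against wild type by edgeR.

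Markers of cell types moved between the groups as well, and their part in the ribosomal protein differences was not tested. The 8 markers of double-positive thymocytes, the main cells of the thymus, summed to 9062 to 10413 CPM in wild type, 8934 to 9554 in heterozygous KO and 7217 to 7492 in homozygous KO, so the tissue label holds in all libraries. The 5 markers of mature single-positive thymocytes summed to 256 to 358, 271.7 to 291 and 147 to 209 CPM. The 6 B-cell markers summed to 34.2 to 55.8, 31.7 to 38.0 and 6.37 to 8.92 CPM, with 2 of the 6 at 3 counts or fewer in every homozygous library. The 7 erythroid markers ranged from 355 to 1871 CPM in wild type, highest in wild type 4, from 199.8 to 601 in heterozygous KO and from 230.4 to 2305 in homozygous KO. The 9 myeloid markers were at 68.9 to 79.3, 55.97 to 72.1 and 62.9 to 219.8 CPM. Within some lists genes went both ways in homozygous KO. Cd8a rose and Rag1 fell among the double-positive markers, and S100a8 rose and Csf1r fell among the myeloid ones. Other lists went 1 way. Against wild type, 4 of the 5 mature single-positive markers and all 6 B-cell markers were called lower, with medians of -1.80 and -5.39. All 7 erythroid markers were above 0, with none called. Over all features 25.8% were called. The 6 fibroblast markers summed to 4.25 to 12.9, 4.40 to 6.24 and 10.4 to 32.3 CPM, with 4 of the 6 called higher in homozygous KO and a median log2 fold change of 1.56. The 6 double-negative thymocyte markers were at 296 to 473, 303 to 383 and 209.9 to 728 CPM, with 1 called higher and 3 lower. The 7 markers of thymic epithelium were at 41.4 to 61.03, 39.95 to 78.7 and 43.3 to 118 CPM, with 2 called higher and 1 lower. The 6 endothelial and 6 muscle markers were at 136 to 159.6 and 4.88 to 9.71 CPM over all libraries. Only 5 and 3 of them were tested, with 1 called higher in each list. Their median log2 fold changes in homozygous KO against wild type were 1.06 and 0.92. In heterozygous KO none of the genes in these 10 lists was called by edgeR, and the member median there was 0.17.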

How the data were processed

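The authors deposited raw read counts per gene for 10 mouse thymus libraries, with no normalization. The submitters' processing notes name CASAVA, STAR 2.4.1d, HTSeq 0.6.1p1 and the builds NCBIM37 and mm9. The libraries were stranded and depleted of ribosomal RNA. The strand setting and the treatment of reads shared by copies are not given in the sources used here. Symbols came from GENCODE M21 by Ensembl identifier (30204 of 34467 matched). Groups followed the titles, and columns were matched by animal number.

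Features passing filterByExpr (19511) were fitted with edgeR 4.0.16 (R 4.3.3, TMM, glmQLFit and glmQLFTest) in 1 model over all 10 libraries. The SE is the absolute log2 fold change over the square root of F, and CPM are TMM-scaled. DESeq2 1.42.0 was an alternative. Library totals of 39.8 to 122 M counts put 3 counts at 0.0245 to 0.0753 CPM. Pairs of libraries within groups differed beyond counting noise (chi-square per degree of freedom 13.1 to 114), and none was merged. Medians over members carry no test.

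Members and lists were chosen with earlier results of these data known. Named members were the 6 largest called rises (1 is not reported here), the 4 with most counts, paralogs, members with known roles and, after values were seen, Rps28, Rps7, Rps21, Rpl29, Rpl30, Rpl34, Rpl31, Rpl37, Rps27 and Rps4x. Coordinates are those of the RefSeq promoter table only.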

Additional observations from a re-analysis of the deposited data

Results flagged for a closer look

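Dixon's test was applied to 29 quantities, the named genes and the ribosomal protein share. In 8 of the 29, 1 of the 4 wild types stood further from the rest than the 95% limit allows. For a single quantity chance does this in about 1 in 20. Members shifted together within a library, so the 29 are not separate tests and the 8 cannot be set against that rate. The share itself was not flagged. In 6 of the 8 wild type 4 was the high library. Rpl38 was at 223 CPM there against 202 to 203 in the other 3. Rpl3 was at 1095 against 942 to 962, Rpl11 at 497 against 452 to 458 and Rps14 at 896 against 665 to 683. Of the related genes, Rps3a1 was at 1012 CPM against 911 to 916 and Rack1 at 1021 against 834 to 866. Wild type 1 was the low library for Rpl4, at 1132 CPM against 1183 to 1192, and for Rpl34, at 104 against 155 to 165. Leaving out wild type 4 raised the number of members called in homozygous KO against wild type from 19 to 33. The share of all features called was 25.5% without that library and 25.8% with it.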

How the results depend on the processing

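The 19 calls in homozygous KO against wild type became 26 with DESeq2 (3 instead of 0 in heterozygous KO), 12 with only the 2 groups in the fit, 6 with library totals in place of TMM, 3 with only wild types 3 and 4 as controls, 5 on the members' own total and 10 to 33 when 1 library was left out. Leaving out homozygous KO 2, wild type 1 or wild type 2 gave 10, and leaving out homozygous KO 1 gave 11 and wild type 3 gave 12. Of all features, 29.9% were called with DESeq2, 22.4% with only the 2 groups, 25.3% with library totals and 22.4% on the members' own total. The share was 13.4% with wild types 3 and 4 alone and 20.1% to 25.5% with 1 library left out. Wild types 1 and 2 alone gave 19 members and 18.2% of all features, and Xist as a covariate gave 13 and 20.7%. Library totals moved the median over all features to -0.11 and the share of higher calls among all features from 48.6% to 29.0%. The member median was then 0.039, which is 0.15 above that of all features, as with TMM. In homozygous against heterozygous KO the calls went from 4 to 12 and the median to -0.12 with library totals, 2 with only the 2 groups, and 1 to 3 without a library. With library totals 16.3% of all features were called there, against 17.1% with TMM. The share of all features was 13.5% with only the 2 groups and 10.8% to 14.98% with 1 library left out. Calls among all features thus fell in these fits too. With only the 2 groups Rps28 and Rpl3l lost their calls, as they did without homozygous KO 2 or heterozygous KO 3, and without heterozygous KO 2 only Rps19 was called. On the members' own total the medians against wild type were -0.011 (homozygous KO) and 0.015 (heterozygous KO), by construction near 0. Rps27l, Rps19 and Rps4l were called in all 20 alternatives, Rpl38 and Rpl7l1 in 18, Rps6 and Rpl4 in 17, Rps2 in 16 and Rpl13a in 14. The replicate number as a replicate block gave 29 calls, with 25.3% of all features called. The same-numbered libraries did not deviate together (r -0.10 to 0.23), so the numbers do not pair them.

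The sign of some uncalled genes in homozygous KO against wild type turned, and the cause was not tested. Rplp0 was at -0.085 with library totals, -0.0033 without a filter, -0.0115 with the animal run as a term, -0.0057 with Xist as a covariate, -0.0158 with wild types 3 and 4 and -0.13 on the members' own total, and -0.064 to 0.074 with 1 library left out. Rpl10 was at -0.021 with library totals and -0.072 on the members' total. On that scale Rpl3 was at -0.038, Rpl22 at -0.049, Rpl5 at -0.013, Rpl11 at -0.016, Rpl34 at -0.0093, Rps3a1 at -0.0046, Fau at -0.043 and Rpl36al at -0.0101. Rps28 was at 0.017 with the replicate block, 0.0061 with wild types 1 and 2, and -0.061 to 0.016 with 1 library left out. With the animal run as a term Rpl39l was at -0.00028 and Rpl29 at 0.034, and with wild types 3 and 4 alone Rpl39l was at -0.47, Rpl29 at 0.097 and Rpl34 at -0.012. With 1 library left out, Rpl39l ranged from -0.20 to 0.73, Rpl29 from -0.39 to 0.45 (the highest without homozygous KO 3) and Rpl34 from -0.0049 to 0.28. Of the values of named genes under alternatives, 494 kept their direction and side of the threshold, 20 lost a call, 12 gained one and 34 changed sign.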
